A study of Sus scrofa with 2 samples.

Results

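The expression of 9 genes that encode transcription factors of the pancreatic islet was followed through the nuclei of the pig pancreas. These were PAX6, NEUROD1, PDX1, NKX6-1, IRX1, IRX2, ETV1, RFX6 and MEIS2. They were found by symbol, and none was missing among the 31908 genes of the count matrices. Single-nucleus RNA sequencing tags the RNA of each nucleus with a barcode and each molecule with a unique molecular identifier (UMI). The WT group was 1 wild-type Bama pig, and the PIGinH11 group was 1 Bama pig with GIPRdn, hIAPP and PNPLA3 I148M knocked in at the H11 locus under promoters specific to beta cells or liver. Both pigs were 18 months old and had eaten a control diet to the age of 6 months and a high-fat and high-sucrose diet (HFHSD) for the following 12 months. About 0.2 g of whole pancreas was taken from each pig, without isolation of islets. With 1 library per group, no test between the groups is possible and no p-value is given. The 95% intervals below cover counting error only, not differences between nuclei, animals or pieces of tissue.

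Hormone-producing islet cells descend from PDX1-positive progenitors of the embryonic pancreas and keep a set of transcription factors that hold their identity. PAX6, NEUROD1 and RFX6 act in islet cells of several types, PDX1 and NKX6-1 maintain the insulin-producing beta cell, and IRX1 and IRX2 are known from the glucagon-producing alpha cell. ETV1 is an ETS-family factor and MEIS2 a TALE homeodomain factor that partners with PBX and HOX proteins, and both also act in many cells outside the islet.

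After filtering, 11854 WT and 13126 PIGinH11 nuclei remained, with a median of 3016.5 and 1167 UMIs. The matrices shared 60 barcodes, of which 47 were among the retained nuclei. Classes were named from markers and carry the ending "-like", and none of the 9 genes took part in clustering or naming. The WT and PIGinH11 libraries held 65 and 75 alpha-like nuclei, 141 and 137 beta-like nuclei, 28 and 62 delta-like nuclei, and 6 and 40 gamma-like nuclei. A further 24 and 103 nuclei (endocrine cluster 3) and 16 and 57 nuclei (endocrine cluster 6) were endocrine-like, but their best match in the second clustering was acinar, so they stayed unnamed. Cluster 3 was led by EBF1, ADGRL4 and NRP1 and held no endocrine gene among its 10 leading genes, and cluster 6 was led by RFTN2, FIBCD1 and the acinar marker RBPJL. Endocrine markers were at 24884 and 13631 CPM in cluster 3 and at 15714 and 10020 CPM in cluster 6, against 211 and 329 CPM in acinar-like nuclei. Both stay in the pool of all endocrine-like nuclei, and leaving them out did not change the number of genes at least 4-fold above acinar-like nuclei. Of the listed markers, 9 of 9 were found in alpha-like, 10 of 11 in beta-like, 8 of 8 in delta-like and 8 of 8 in gamma-like nuclei, and the missing beta marker was IAPP, which had 0 UMIs. Levels are UMIs of a gene per 1000000 UMIs of the class (CPM), and contrasts between classes are descriptions, since the classes were built from these nuclei.

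The genes differ widely in the length they span in the genome (build Sscrofa11.1). The longest span was that of ETV1 at chr9:83322818-83567136, with 244.3 kb, and the shortest that of NEUROD1 at chr15:87175629-87179953, with 4.3 kb. IRX1 at chr16:77695704-77701089 and IRX2 at chr16:78305869-78322776 lie 605 kb apart, and the others are on separate chromosomes except RFX6 at chr1:44765451-44826884 and MEIS2 at chr1:134013642-134223013. PAX6 lies at chr2:28971565-29001149, PDX1 at chr11:5303609-5309063 and NKX6-1 at chr8:134137064-134143524. Unspliced RNA is abundant in nuclei, so levels of different genes were compared only per kb of this span. On that scale, PAX6 and RFX6 were highest in WT endocrine-like nuclei, with 13.2 and 10.7 CPM per kb, and in PIGinH11 endocrine-like nuclei PAX6, RFX6 and NEUROD1 each had 10.2. ETV1 was lowest, with 0.52 and 0.77 CPM per kb.

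**Figure D1:**
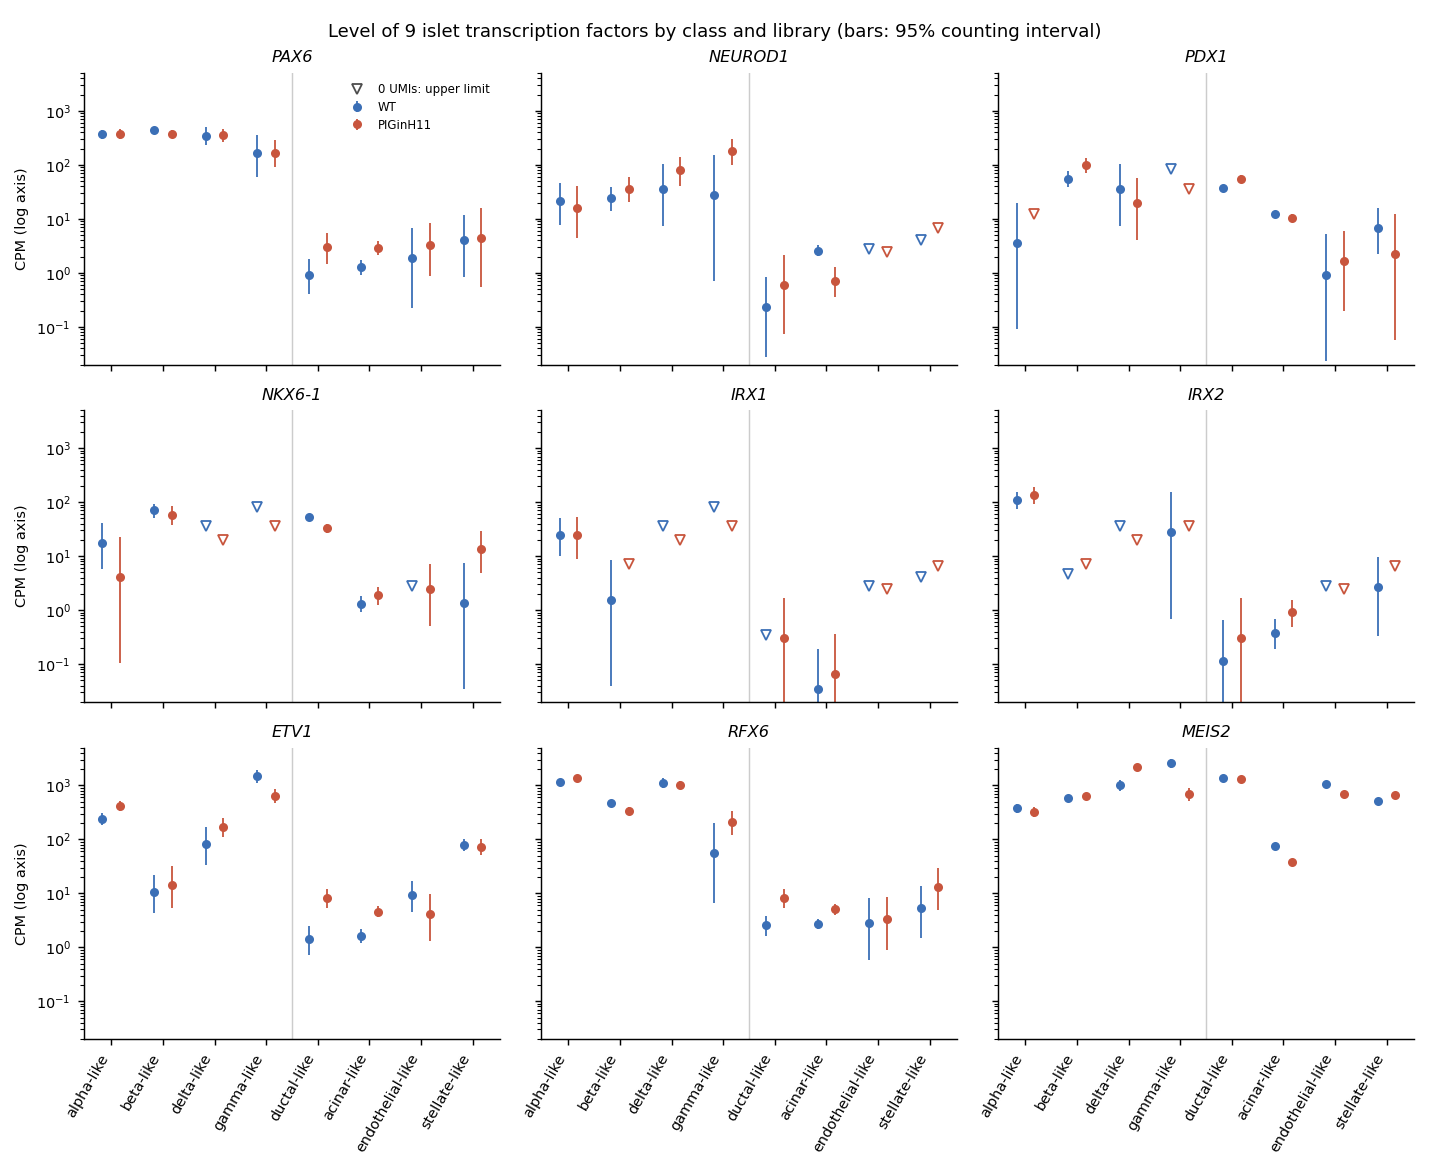
Level of the 9 genes in CPM (log axis) for 8 classes, with WT in blue, PIGinH11 in red, bars for the 95% counting interval and open triangles for the upper limit where no UMI was found. PAX6 and RFX6 stood above 50 CPM in the 4 endocrine classes and below 15 CPM in the others, whereas PDX1, NKX6-1 and MEIS2 were also present in ductal-like nuclei.

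Of the 9 genes, 8 had enough UMIs for the contrast of all endocrine-like with acinar-like nuclei (at least 20 UMIs over both classes in each library), and IRX1 did not. At least 4-fold higher in both libraries were 7 of these 8, while 8.13% of all 16244 genes met the same criterion. The median log2 ratio of the 8 genes was 5.71 in the WT and 5.38 in the PIGinH11 library, against 0.04 and -0.03 over all genes compared. PAX6 had the highest ratio in the WT library, 304-fold, and was 104-fold higher in the PIGinH11 library. RFX6 was 244-fold and 125-fold higher, IRX2 80.1-fold and 42.7-fold, ETV1 77.6-fold and 40.7-fold, and NKX6-1 35.4-fold and 12.8-fold. NEUROD1 (9.47-fold and 62.2-fold) and MEIS2 (8.67-fold and 18.7-fold) were the only ones of the 7 with the larger ratio in the PIGinH11 library. PDX1 was the exception, with 2.90-fold and 3.87-fold.

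**Figure D2:**
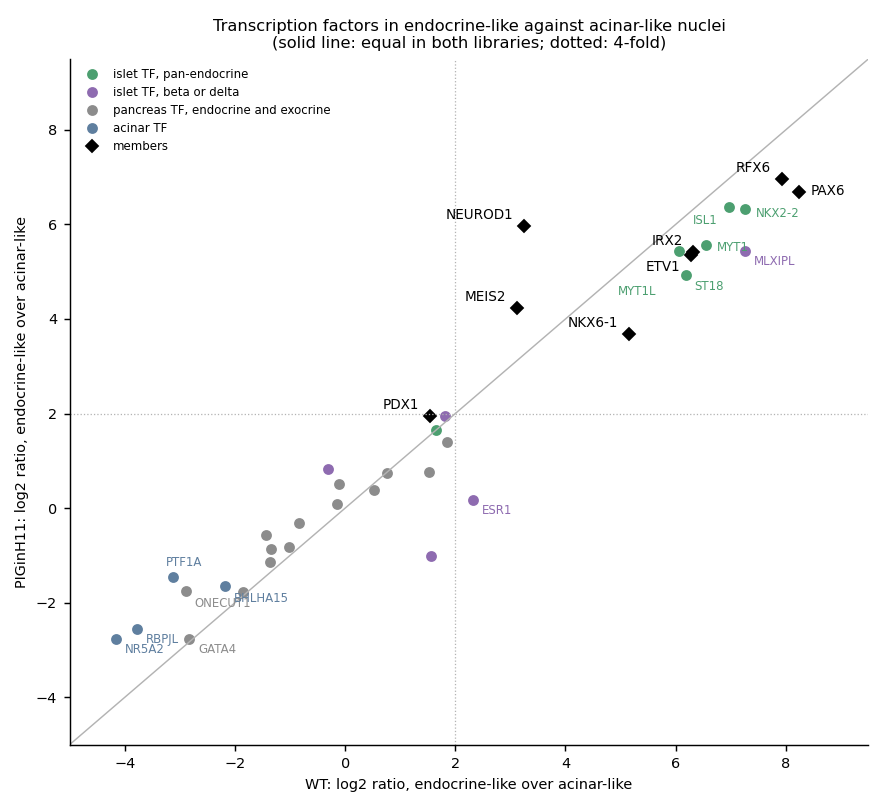
Ratio of CPM in endocrine-like over acinar-like nuclei (log2) in the WT library (horizontal) and the PIGinH11 library (vertical), for the islet factors (black diamonds) and other listed transcription factors (circles, coloured by list). All diamonds except PDX1 lie past the dotted 4-fold lines in both libraries, and NEUROD1 and MEIS2 lie above the line of equal ratios.

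PAX6, a paired-box factor required for glucagon and insulin transcription, had nearly the same level in 3 endocrine classes. It was 369 CPM (104 UMIs) in the WT and 374 CPM (92 UMIs) in the PIGinH11 alpha-like nuclei, 441 and 375 CPM in beta-like nuclei, and 346 and 352 CPM in delta-like nuclei. In order of level, the intervals of neighbouring ratios among these 3 classes included no difference in both libraries. Assignment by the leading hormone instead gave 389 and 266 CPM in nuclei led by GCG and 409 and 377 CPM in those led by INS. Nuclei led by SST had 349 and 389 CPM, so the nearly equal level did not hold for GCG in the PIGinH11 library. Gamma-like nuclei had 165 CPM (6 UMIs) and 169 CPM (14 UMIs), which was 2.24-fold and 2.21-fold lower than in alpha-like nuclei. The WT interval included no difference (log2 -2.64 to 0.01), and 5 of the 6 WT UMIs came from 1 nucleus. Ductal-like nuclei had 0.93 and 3.01 CPM and acinar-like nuclei 1.28 and 2.91 CPM, close to the 1.86 and 3.27 CPM of endothelial-like nuclei. The share of alpha-like nuclei with a PAX6 UMI was 70.8% (WT) and 48.0% (PIGinH11), at median depths of 3659 and 2565 UMIs. With every nucleus thinned to 500 UMIs, these shares were 15.4% and 18.7%, with overlapping intervals.

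RFX6, a winged-helix factor needed to form endocrine cells and to keep insulin secretion in the adult, was also found in all 4 endocrine classes. It had 1134 and 1356 CPM in alpha-like nuclei (320 and 334 UMIs), 1109 and 1028 CPM in delta-like nuclei, 476 and 329 CPM in beta-like nuclei, and 55.0 and 205 CPM in gamma-like nuclei (2 and 17 UMIs). Alpha-like nuclei were therefore 2.38-fold and 4.12-fold above beta-like nuclei, and delta-like nuclei 2.33-fold and 3.12-fold. Alpha-like and delta-like nuclei did not differ beyond counting error in the WT library (log2 ratio 0.03, interval -0.30 to 0.38), and alpha-like nuclei were slightly higher in the PIGinH11 library (0.40, interval 0.12 to 0.68). After thinning, the share of nuclei with an RFX6 UMI was 43.1% and 44.0% in alpha-like, 42.9% and 43.5% in delta-like, and 22.0% and 13.1% in beta-like nuclei.

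NEUROD1, the basic helix-loop-helix factor that follows NEUROG3 in endocrine differentiation and activates the insulin gene, gave few UMIs. Its level was 21.3 and 16.2 CPM in alpha-like nuclei (6 and 4 UMIs), 24.5 and 36.3 CPM in beta-like nuclei (16 and 15 UMIs), and 35.8 and 79.6 CPM in delta-like nuclei (3 and 12 UMIs). In PIGinH11 gamma-like nuclei it was 181 CPM (15 UMIs), while WT gamma-like nuclei had 1 UMI. No NEUROD1 UMI was found in endothelial-like or stellate-like nuclei. Per kb of its short span, NEUROD1 had 5.69 CPM in WT and 10.2 CPM in PIGinH11 endocrine-like nuclei, the latter equal to PAX6 and RFX6 at this precision.

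PDX1 and NKX6-1, the homeodomain factors of the beta cell, both had their highest level in beta-like nuclei and the next in ductal-like nuclei. PDX1 had 55.1 CPM (36 UMIs) in WT and 99.2 CPM (41 UMIs) in PIGinH11 beta-like nuclei, and 37.3 CPM (321 UMIs) and 56.0 CPM (186 UMIs) in ductal-like nuclei. Beta-like nuclei were 1.48-fold (log2 interval 0.02 to 1.06) and 1.77-fold (0.30 to 1.32) above ductal-like nuclei. In alpha-like nuclei only 1 WT UMI was found, so that beta-like nuclei were 15.5-fold higher in the WT library and at least 8.15-fold higher in the PIGinH11 library, with 3 UMIs taken as the floor. Delta-like nuclei had 35.8 and 19.9 CPM from 3 UMIs in each library, and gamma-like nuclei had none, which allows up to 82.5 and 36.3 CPM.

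NKX6-1 had 70.4 CPM (46 UMIs) and 58.1 CPM (24 UMIs) in beta-like nuclei and 52.5 CPM (452 UMIs) and 33.1 CPM (110 UMIs) in ductal-like nuclei. The ratio of beta-like over ductal-like nuclei was 1.34-fold in the WT library, with an interval that included no difference (log2 -0.05 to 0.86), and 1.75-fold in the PIGinH11 library (0.11 to 1.46). Beta-like nuclei were 3.97-fold and 14.3-fold above alpha-like nuclei, where 5 and 1 UMIs were found. Delta-like and gamma-like nuclei had no NKX6-1 UMI, and stellate-like nuclei had 1.35 CPM (1 UMI) and 13.3 CPM (6 UMIs).

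In exocrine nuclei these homeodomain factors separated. PDX1 was present in acinar-like nuclei at 12.3 and 10.5 CPM (354 and 162 UMIs), which was 13.2-fold and 6.40-fold above the 1 and 2 UMIs of endothelial-like nuclei. The ratio over stellate-like nuclei included no difference in both libraries (log2 interval -0.38 to 2.49 and -0.26 to 7.55). For PDX1, ductal-like nuclei were 3.04-fold and 5.35-fold above acinar-like nuclei. NKX6-1 had only 1.32 and 1.87 CPM in acinar-like nuclei, and ductal-like nuclei were 39.8-fold and 17.7-fold higher. NKX6-1 in acinar-like nuclei was near its level in endothelial-like nuclei, where 0 UMIs in the WT library allow up to 2.79 CPM and the PIGinH11 library had 2.45 CPM. The 3 ductal clusters (4, 5 and 13) all had both genes in the WT library, with PDX1 at 53.7, 30.4 and 32.5 CPM and NKX6-1 at 65.7, 48.3 and 37.1 CPM. Of ductal-like nuclei, 12.6% of WT and 7.05% of PIGinH11 nuclei had a PDX1 UMI, and after thinning 1.72% and 3.50% did, compared with 0% in endothelial-like nuclei of both libraries. A UMI of both genes in the same nucleus was found in 8 WT and 5 PIGinH11 endocrine-like nuclei, and in 63 of 2152 and 7 of 2199 ductal-like nuclei. Of these ductal-like nuclei, 271 and 155 had a PDX1 UMI and 370 and 103 an NKX6-1 UMI. Their median depths were 3412 and 1023 UMIs, so the lower count of both was not read as a loss of joint expression.

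IRX1 and IRX2, Iroquois homeodomain factors that neighbour each other on chromosome 16, had their highest levels in alpha-like nuclei. IRX2 had 110 CPM (31 UMIs) in WT and 134 CPM (33 UMIs) in PIGinH11 alpha-like nuclei. No IRX2 UMI was found in beta-like nuclei, which allows up to 4.59 and 7.26 CPM, so alpha-like nuclei were at least 23.9-fold and 18.5-fold higher. Delta-like nuclei also had no IRX2 UMI, and gamma-like nuclei had 1 in the WT library. IRX1 followed with 24.8 CPM (7 UMIs) and 24.4 CPM (6 UMIs) in alpha-like nuclei, compared with 1 UMI in WT and 0 in PIGinH11 beta-like nuclei. Endocrine cluster 3, which carries acinar markers at 4727 and 11483 CPM, had IRX2 at 91.5 CPM (3 UMIs) and 77.2 CPM (6 UMIs). No endocrine-like nucleus had both an IRX2 and a PDX1 UMI. Of 280 WT and 474 PIGinH11 endocrine-like nuclei, 26 and 26 had an IRX2 UMI and 37 and 29 a PDX1 UMI. With either gene seen in so few nuclei, the lack of overlap was not read as mutual exclusion.

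ETV1 and MEIS2 divided the endocrine classes differently from the other factors. ETV1 was highest in gamma-like nuclei, with 1484 CPM (54 UMIs) in the WT and 641 CPM (53 UMIs) in the PIGinH11 library. It came next in alpha-like nuclei, with 241 and 414 CPM, then in delta-like nuclei, with 83.4 and 172 CPM, and was lowest in beta-like nuclei, with 10.7 and 14.5 CPM. Alpha-like nuclei were 22.5-fold and 28.5-fold above beta-like nuclei. The WT gamma-like level rests on 6 nuclei, which had 33, 9, 7, 4, 1 and 0 ETV1 UMIs, so 1 nucleus held most of the counts. After thinning, 66.7% of WT and 25% of PIGinH11 gamma-like nuclei still had an ETV1 UMI. Outside the islet, stellate-like nuclei had 79.8 and 73.3 CPM, near the level of WT delta-like nuclei, while ductal-like and acinar-like nuclei stayed below 10 CPM.

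MEIS2 was the only one of the 9 that was lower in endocrine-like than in ductal-like nuclei in both libraries beyond counting error, by 2.17-fold and 1.85-fold. Ductal-like nuclei had 1389 CPM (11957 UMIs) in the WT and 1320 CPM (4382 UMIs) in the PIGinH11 library, and endothelial-like nuclei had 1050 and 687 CPM. Acinar-like nuclei stood apart with 73.9 and 38.1 CPM, so that ductal-like nuclei were 18.8-fold and 34.6-fold higher. Within the islet, MEIS2 was lowest in alpha-like nuclei (372 and 325 CPM), intermediate in beta-like nuclei (589 and 629 CPM) and higher in delta-like nuclei (1001 and 2169 CPM). Delta-like nuclei were 1.70-fold and 3.45-fold above beta-like nuclei. In the WT library this rests on 1 nucleus with 43 of the 84 delta-like UMIs, and with the nucleus richest in MEIS2 left out of each class the WT level was 529 CPM in delta-like and 568 CPM in beta-like nuclei, against 1889 and 605 CPM in the PIGinH11 library. Gamma-like nuclei had 2556 CPM in the WT library, where 53 of 93 UMIs came from 1 nucleus, and 689 CPM in the PIGinH11 library.

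**Figure D3:**
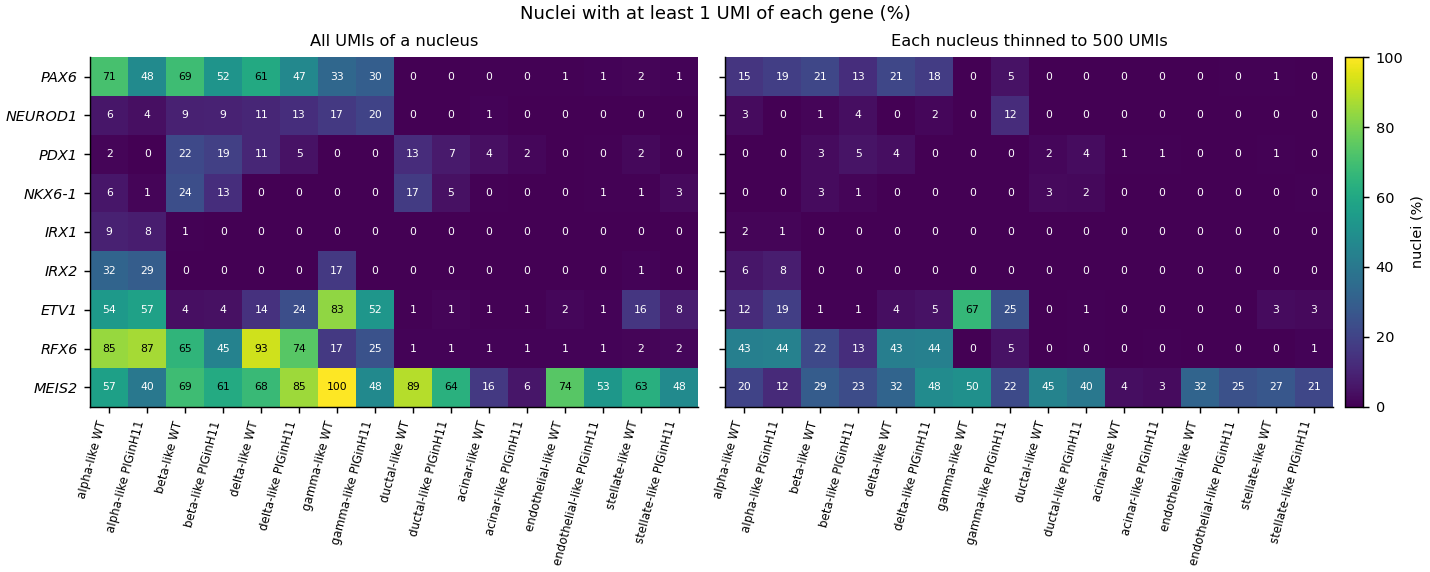
Share of nuclei with at least 1 UMI of each gene (%), by class and library, with all UMIs (left) and after each nucleus was thinned to 500 UMIs (right). Thinning brings the libraries closer for most genes, as for MEIS2 in ductal-like nuclei, with 89.0% and 63.6% before and 44.9% and 39.9% after.

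The genes were also read together in single nuclei. At least 1 of the 9 was found in 100% of WT and 94.7% of PIGinH11 alpha-like nuclei, 96.5% and 86.9% of beta-like nuclei, and 96.4% and 100% of delta-like nuclei. The shares were 22.2% and 10.0% of acinar-like nuclei, and after thinning 5.05% and 4.77% of these against 64.6% and 69.3% of alpha-like nuclei. Ductal-like nuclei had 91.2% and 68.2%. After thinning they had 47.4% and 44.1%, against 64.5% and 46.0% of beta-like nuclei, so this share did not set PIGinH11 beta-like nuclei apart from ductal-like ones. Endothelial-like nuclei, with at least 1 gene in 32.5% and 25.4% after thinning, owed these shares mainly to MEIS2, of which 32.1% and 24.7% had a UMI. PAX6 was found in 183 WT and 161 PIGinH11 endocrine-like nuclei, RFX6 in 191 and 213, and MEIS2 in 181 and 220. PAX6 and RFX6 were found together in 138 and 103 of these nuclei, and RFX6 and MEIS2 in 119 and 121. IRX2 and ETV1 met in 14 and 17, where only 26 and 26 nuclei had an IRX2 UMI and 59 and 99 an ETV1 UMI. Whether any pair met more often than its single shares would give was not tested.

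Over 22 profiles (11 classes with at least 20 nuclei in each library, each library apart, without gamma-like nuclei), Pearson's r of log2(CPM + 5) described which genes were most alike. The profiles share their library and depth, and no p is given. IRX1 and IRX2 were each other's nearest gene (r = 0.99), followed for both by GCG, the glucagon gene, with 0.94 and 0.93. IRX1 had 7 and 6 UMIs in alpha-like nuclei and at most 1 in any other class, so its r rests on the alpha-like profiles. A UMI of both IRX1 and IRX2 was found in only 1 WT and 4 PIGinH11 endocrine-like nuclei. PAX6 was nearest to SYT13 (0.99), SCGN (0.99) and CAMK2B (0.98), RFX6 to SCGN, PTH2R and NOL4 (0.97 each), and NEUROD1 to NPTX2 (0.98), CELF3 (0.97) and LMO1 (0.97). The genes present both in and outside the islet had looser neighbours. For PDX1 these were CXADR (0.82), IQANK1 (0.81) and VAT1L (0.80), for NKX6-1 SLC4A10 (0.75), CCDC13 (0.75) and CPLX1 (0.72), for ETV1 LHFPL3 (0.86), THSD4 (0.85) and RAI2 (0.85), and for MEIS2 BBS9 (0.76), ZMIZ1 (0.76) and FMO5 (0.74). GCG, SCGN, NOL4 and LHFPL3 were among the markers used to name classes. Among the 9 genes, PAX6 and RFX6 had r = 0.96 and PDX1 and NKX6-1 r = 0.61.

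The comparison of the PIGinH11 with the WT library asked whether the islet factors differed in a pig that carries the transgenes. In all endocrine-like nuclei, 0 of 8 genes with at least 20 UMIs over both libraries were past 2-fold, where 11.8% of all genes were. NEUROD1 (0.84, interval 0.15 to 1.56), ETV1 (0.56, interval 0.25 to 0.88) and MEIS2 (0.16, interval 0.01 to 0.30) were higher in the PIGinH11 library beyond counting error, and NKX6-1 (-0.96, interval -1.70 to -0.27) and PAX6 (-0.37, interval -0.58 to -0.16) were lower. The make-up of this pool differed between the libraries, with beta-like nuclei 141 of 280 in the WT and 137 of 474 in the PIGinH11 library, so the single classes follow. In alpha-like nuclei 0 of 5 were (13.1% of all genes) and in beta-like nuclei 0 of 6 (12.6%). In beta-like nuclei, PDX1 had a log2 ratio of 0.85 (interval 0.17 to 1.54) and RFX6 of -0.53 (-0.83 to -0.24). NEUROD1 (0.57, interval -0.55 to 1.68), PAX6 (-0.23, interval -0.52 to 0.05), NKX6-1 (-0.28, interval -1.05 to 0.46) and MEIS2 (0.10, interval -0.14 to 0.33) did not differ beyond counting error there. In alpha-like nuclei, ETV1 was higher in the PIGinH11 library (0.78, interval 0.32 to 1.25), RFX6 slightly so (0.26, interval 0.03 to 0.48), and PAX6 had 0.02 (-0.40 to 0.44). When endocrine-like nuclei were assigned by their leading hormone instead, PDX1 had 52.6 and 104 CPM in the nuclei led by INS, and RFX6 479 and 345 CPM. In the nuclei led by GCG, unlike in alpha-like nuclei, PAX6 was lower in the PIGinH11 library (389 and 266 CPM, log2 ratio -0.55, interval -1.01 to -0.09). There ETV1 had 0.53 (0.04 to 1.03) and RFX6 -0.01 (-0.25 to 0.23).

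Delta-like nuclei gave 2 of 4 genes past 2-fold, both higher in the PIGinH11 library (19% of all genes past 2-fold). MEIS2 had a log2 ratio of 1.12 (interval 0.77 to 1.48) and ETV1 1.05 (-0.19 to 2.50), the latter from 7 and 26 UMIs. Without the nucleus richest in MEIS2 in each library, the log2 ratio was 1.83 (interval 1.36 to 2.35). A MEIS2 UMI was found in 67.9% of WT and 85.5% of PIGinH11 delta-like nuclei, and in 32.1% and 48.4% after thinning. In gamma-like nuclei both genes were lower in the PIGinH11 library, MEIS2 at -1.89 (-2.39 to -1.40) and ETV1 at -1.21 (-1.79 to -0.64), on 6 WT nuclei. Without the richest nucleus of each library, MEIS2 had -1.47 (-2.11 to -0.82) and ETV1 -0.46 (-1.23 to 0.36), so that ETV1 no longer differed beyond counting error. PPY, the hormone of gamma cells, differed strongly among these 6, which had between 0 and 204 PPY UMIs.

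**Figure D4:**
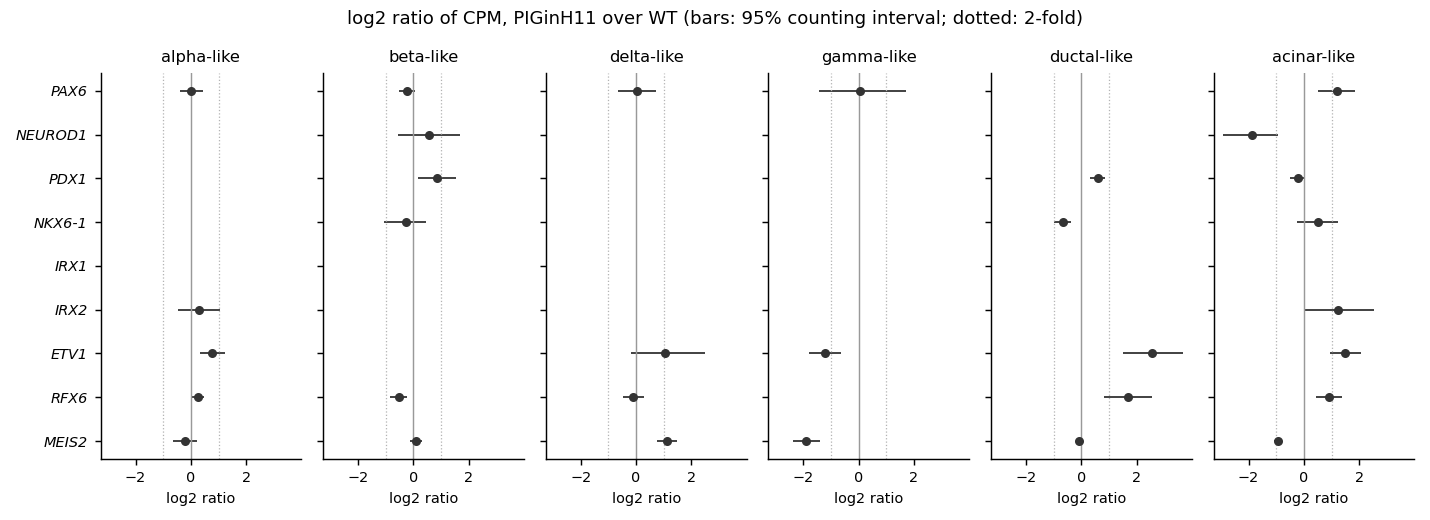
Ratio of CPM, PIGinH11 over WT (log2), for each gene and class with at least 20 UMIs over both libraries, with bars for the 95% counting interval and dotted lines at 2-fold. In alpha-like and beta-like nuclei all points lie between the dotted lines, and in ductal-like and acinar-like nuclei ETV1 lies to the right of them.

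Ductal-like nuclei had 2 of 5 genes past 2-fold, both higher in the PIGinH11 library (20.9% of all genes past 2-fold). These were ETV1 (1.39 and 8.13 CPM, log2 ratio 2.54, interval 1.52 to 3.66) and RFX6 (2.56 and 8.13 CPM, 1.67, interval 0.80 to 2.55). Both were far below their levels in alpha-like nuclei. The same direction held in the larger ductal clusters, with ETV1 at 2.40 and 17.1 CPM in ductal cluster 4 and 0.55 and 3.00 CPM in ductal cluster 5, and RFX6 at 4.41 and 13.7 CPM and 1.83 and 5.50 CPM. Endothelial-like nuclei had ETV1 at 9.29 and 4.09 CPM and RFX6 at 2.79 and 3.27 CPM. RFX6 was also higher in PIGinH11 acinar-like nuclei (2.71 and 5.04 CPM, log2 ratio 0.90, interval 0.43 to 1.37). Stellate-like nuclei had RFX6 at 5.41 and 13.3 CPM (4 and 6 UMIs), with an interval that included no difference (-0.78 to 3.57). The rise of RFX6 was thus not particular to ductal-like nuclei. Nor was a rise there particular to ETV1 and RFX6. Of 11 compared genes known as targets of islet factors, 5 were higher past 2-fold in ductal-like nuclei and 0 lower. Among them, ABCC8 had 3.14 and 16.6 CPM. Stellate-like nuclei had ABCC8 at 2.71 and 19.99 CPM and endothelial-like nuclei at 3.72 and 6.55 CPM. The rise of ABCC8 was therefore not read as particular to ductal-like nuclei. In acinar-like nuclei 6 of 14 such targets were higher and 1 lower (24.6% of all genes past 2-fold). PDX1 and NKX6-1 differed in direction in ductal-like nuclei, with PDX1 higher in the PIGinH11 library (0.59, interval 0.32 to 0.85) and NKX6-1 lower (-0.66, interval -0.98 to -0.36). MEIS2 differed little over the class (-0.07, interval -0.12 to -0.02), but the ductal clusters went different ways. It was lower in the PIGinH11 library in ductal cluster 4 (1270 and 928 CPM) and higher in ductal cluster 13 (1197 and 1577 CPM). In ductal cluster 5 it had 1466 and 1531 CPM, with overlapping intervals.

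In acinar-like nuclei 4 of 8 genes were past 2-fold, 3 higher and 1 lower in the PIGinH11 library (24.6% of all genes past 2-fold). ETV1 had 1.63 and 4.59 CPM (log2 ratio 1.49, interval 0.94 to 2.06), PAX6 1.28 and 2.91 CPM (1.18, interval 0.52 to 1.85) and IRX2 0.38 and 0.90 CPM (1.25, interval 0.00 to 2.53). The PAX6 levels lie below those of endothelial-like nuclei (1.86 and 3.27 CPM), and those of IRX2 below the 2.79 and 2.45 CPM that 0 endothelial-like UMIs allow, so neither was read as above background. ETV1 was at 9.29 and 4.09 CPM in endothelial-like nuclei, above its WT acinar-like level and close to the PIGinH11 one. NEUROD1 was lower, with 2.60 and 0.71 CPM (-1.87, interval -2.93 to -0.95), and its WT level there lies under the 2.79 CPM that 0 UMIs in WT endothelial-like nuclei allow. That WT level was, however, above the 0.23 CPM (2 UMIs) of WT ductal-like nuclei (log2 ratio 3.48, interval 1.58 to 6.56). In the PIGinH11 library, acinar-like and ductal-like nuclei did not differ in NEUROD1 beyond counting error (0.24, interval -1.96 to 3.45). MEIS2, which had far more UMIs there, was just inside the limit, with 73.9 and 38.1 CPM (-0.95, interval -1.09 to -0.82). It was lower in the PIGinH11 library in the 3 largest acinar clusters, with 70.0 and 21.3 CPM in acinar cluster 1, 98.7 and 74.0 CPM in acinar cluster 2 and 78.7 and 38.9 CPM in acinar cluster 3. PDX1 did not differ beyond counting error (-0.23, interval -0.51 to 0.04). The digestive enzymes (7 genes summed) also moved with the library, from 59819 to 30743 CPM in acinar-like and from 30057 to 6274 CPM in ductal-like nuclei, and depth was lower in the PIGinH11 library. Their part in these ratios was not tested.

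In endocrine cluster 6, only PAX6, RFX6 and MEIS2 had at least 20 UMIs over both libraries, and all 3 were lower in the PIGinH11 library past 2-fold. The share of all genes past 2-fold was not computed for this cluster, so the fall was not read as particular to these factors. PAX6 had 258 CPM (23 UMIs) in the WT and 60.7 CPM (7 UMIs) in the PIGinH11 library, RFX6 426 and 173 CPM (38 and 20 UMIs), and MEIS2 729 and 191 CPM (65 and 22 UMIs). The log2 ratios were -2.09 (interval -3.55 to -0.82), -1.30 (-2.16 to -0.48) and -1.93 (-2.70 to -1.22). Acinar markers were at 11553 and 15525 CPM in this cluster, compared with 3731 and 5700 CPM in beta-like nuclei. In endocrine cluster 3, PAX6 had 274 and 77.2 CPM from 9 and 6 UMIs, too few for the comparison, and RFX6 396 and 257 CPM, with a log2 ratio of -0.62 (interval -1.70 to 0.51) that included no difference. Acinar markers were at 4727 and 11483 CPM there. The 14 endocrine markers were also lower there, at 24884 CPM in the WT and 13631 CPM in the PIGinH11 library, as they were in endocrine cluster 6 (15714 and 10020 CPM). The part of the acinar markers in these values was not tested.

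Other transcription factors of the pancreas put these values in context. Of 42 listed, 41 were in the matrices, 29 had enough UMIs for the contrast of endocrine-like with acinar-like nuclei, and 6 were at least 4-fold higher in both libraries, where 8.13% of all genes were. In the pan-endocrine list 5 of 6 met it, namely ISL1, NKX2-2, MYT1, MYT1L and ST18, and RFX3 did not (log2 1.65 and 1.66). The sixth was MLXIPL, a carbohydrate-responsive factor, while 0 of 14 factors shared by endocrine and exocrine cells and 0 of 4 acinar factors met it. INSM1 was not analysed here. Between the libraries, 1 of 23 listed factors was higher and 1 lower past 2-fold in beta-like nuclei, against 12.6% of all genes past 2-fold in either direction. RBPJL, an acinar factor also used as an acinar marker, was higher there (49.0 and 109 CPM), and ONECUT1 was lower (27.5 and 4.84 CPM, log2 interval -5.66 to -0.45). Endothelial-like nuclei had ONECUT1 at 37.2 and 25.4 CPM, so its beta-like values were not read as above background. For RBPJL, endothelial-like nuclei rose from 82.7 to 292 CPM, so the beta-like values were not read as above background. A rise was also seen in ductal-like nuclei, from 54.5 to 136 CPM. Alpha-like nuclei went the other way (95.7 to 77.1 CPM), with an interval that included no difference (log2 -1.24 to 0.59).

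Of genes known as targets of PDX1, PAX6, NEUROD1, NKX6-1 or RFX6, 14 of 15 were at least 4-fold higher in endocrine-like than in acinar-like nuclei in both libraries (8.13% of all genes), and GLP1R was the exception. ABCC8, PCSK1 and PCSK2 were markers that named endocrine-like nuclei. INS, GCG, SST, SLC30A8 and G6PC2 were markers of the classes within them. The count is therefore a description and lends no weight to a link between factors and targets. In beta-like nuclei, 1 of 14 was past 2-fold between the libraries (12.6% of all genes), GCG, which was lower (50.5 and 16.9 CPM). GCG was also lower in acinar-like nuclei (32.6 and 16.7 CPM), and endothelial-like nuclei had 20.4 and 13.9 CPM. The PIGinH11 beta-like level was therefore not read as above background, nor the fall as particular to beta-like nuclei. INS had 8340 and 4996 CPM (log2 ratio -0.74, interval -0.81 to -0.67), SLC2A2, the GLUT2 transporter, 1008 and 743 CPM (-0.44, interval -0.64 to -0.24), and PCSK2, a prohormone convertase, 7340 and 4957 CPM (-0.57, interval -0.64 to -0.49). ABCC8, a subunit of the KATP channel, had 1806 and 1963 CPM (0.12, interval -0.01 to 0.25).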

How the data were processed

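The authors used Cell Ranger with the Sscrofa11.1 genome and deposited raw UMI counts per gene and barcode. The version is v3.1.0 in their processing notes and v5.0.0 in the file headers. The matrices held 55784067 UMIs in 13619 barcodes (WT) and 26228811 UMIs in 14964 barcodes (PIGinH11).

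Barcodes with 270 to 3700 genes, under 13000 UMIs and under 10% mitochondrial UMIs were kept. The study's text gives 1300 UMIs, which would leave 1996 WT and 8239 PIGinH11 barcodes, and this was tried as an alternative. The barcodes with the highest Scrublet scores (0.8% per 1000 barcodes, scanpy v1.11.5) were removed, 1484 in the WT and 1791 in the PIGinH11 library. From 2000 variable genes, without the 9 genes and the other listed transcription factors, 30 components were aligned between the libraries with the Harmony algorithm and clustered by Louvain (resolution 1, igraph v0.11.9) into 21 clusters, of which 19 were named from markers. Endocrine-like nuclei were clustered again into 7 clusters.

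UMIs were summed per class and library. Intervals are exact Poisson for CPM, Clopper–Pearson for shares and conditional binomial for ratios (95%, scipy v1.17.1). No test between groups was made. The counts of genes past 2-fold or 4-fold used at least 20 UMIs. The members and lists were chosen with earlier results of these data known. The text names all 9 genes, for each the 3 genes with the nearest profile (at least 20 CPM in a profile), and listed genes with at least 50 endocrine-like UMIs. Some listed genes are not reported here, and the counts over lists are given without them. In simulated data, 94.8% (endocrine-like, 10129 genes) to 97.4% (beta-like, 7106 genes) of intervals held the true ratio, and counting alone put 1.58% (acinar-like) to 5.05% (delta-like) of unchanged genes past 2-fold. The simulation drew class sums from the counting model that the intervals assume. It checks the calculation and does not cover the uneven spread of UMIs over nuclei. The alternatives, 14 planned and 4 added after seeing the data, changed doublets, filters, clustering, scaling, thinning, free RNA, class assignment and the nucleus richest in a gene. Sequences were not used here.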

Additional observations from a re-analysis of the deposited data

Results flagged for a closer look

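A few ratios between the libraries stood apart from the ratio of the same gene in another class, and each difference between classes was not tested, since each group has 1 library. MEIS2 had a log2 ratio of PIGinH11 over WT of 1.12 in delta-like nuclei, but -1.89 in gamma-like nuclei and -1.93 in endocrine cluster 6. ETV1 had -1.21 in gamma-like nuclei, against 2.54 in ductal-like and 1.49 in acinar-like nuclei. PAX6 had -2.09 in endocrine cluster 6 and 1.18 in acinar-like nuclei. RFX6 had -1.30 in endocrine cluster 6 and 1.67 in ductal-like nuclei. The gamma-like values rest on 6 WT nuclei (ETV1 had -0.46 without the richest nucleus of each library) and those of endocrine cluster 6 on 16 WT nuclei. PAX6 in acinar-like nuclei (1.28 and 2.91 CPM) was not read as above background.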

How the results depend on the processing

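No paired analysis was possible because each group has 1 library. Of 741 alternative values of 55 log2 ratios between classes or libraries, 652 moved by no more than the counting interval, 88 moved further and 1 reversed. The reversal was ETV1 in delta-like nuclei, at -0.0106 with the UMI maximum of 1300. This maximum removes most WT nuclei and leaves no alpha-like or gamma-like class. It also turned 4 ratios whose interval excluded 0, NEUROD1 (-0.59) and ETV1 (-0.50) in endocrine-like nuclei and PDX1 in beta-like (-0.22) and ductal-like nuclei (-0.17). Thinning turned MEIS2 in endocrine-like nuclei (-0.29), and assignment by hormone turned RFX6 in alpha-like nuclei (-0.01). The same assignment moved PAX6 in alpha-like nuclei from 0.02 to -0.55, past its counting interval. The 7 genes at least 4-fold higher in endocrine-like than acinar-like nuclei became 1 with the maximum of 1300 and 4 after thinning, both with fewer UMIs per gene.

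The counts past 2-fold between the libraries changed as follows. In endocrine-like nuclei the count of 0 became 1 with the maximum of 1300, with median-of-ratios scaling, with a denominator that omits enzyme, mitochondrial and ribosomal genes, with the mean over nuclei, without the nucleus richest in each gene and without the endocrine clusters that acinar markers match, and 2 with free RNA subtracted. In alpha-like nuclei it became 1 after thinning and with no minimum of UMIs, and in beta-like nuclei 1 with free RNA subtracted. In delta-like nuclei the count of 2 became 1 without doublet removal, at Louvain resolution 2 and with the other denominator, and 0 after thinning. In ductal-like nuclei 2 became 1 with the maximum of 1300 and with free RNA subtracted, and 5 with no minimum. With free RNA subtracted, neither ETV1 nor RFX6 kept a UMI there. The 1 left was NKX6-1, which was lower in the PIGinH11 library. In acinar-like nuclei 4 became 2 with the maximum of 1300, after thinning and with free RNA subtracted. With free RNA subtracted, ETV1, PAX6 and IRX2 were no longer counted as higher. The 2 left, NEUROD1 and NKX6-1, were both lower in the PIGinH11 library. The median log2 ratio that median-of-ratios scaling subtracts was -0.29 in gamma-like, 0.22 in acinar-like, 0.15 in ductal-like and -0.12 in delta-like nuclei. With it, the count in acinar-like nuclei stayed at 4, but PAX6 (0.96) fell short of 2-fold and MEIS2 (-1.17) passed it, and ETV1 in gamma-like nuclei had -0.92. Free RNA was estimated from endothelial-like and stellate-like nuclei, which had MEIS2 at 1050 and 687 CPM and at 509 and 658 CPM. Its subtraction therefore gave no usable ratio for MEIS2 outside ductal-like nuclei. MEIS2 may be among the genes counted past 2-fold with free RNA subtracted in endocrine-like and beta-like nuclei. The higher counts there were therefore not read as differences between the libraries. In ductal-like nuclei the small MEIS2 ratio moved lower with the subtraction, past its counting interval. At this depth, genes with few UMIs, such as IRX1 and NEUROD1, allow no statement on small differences.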
